A study of Homo sapiens with 12 samples.

Results

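TCN1, PLEKHS1, PLEKHB1, CYB5R2, PRSS23, PIK3AP1, NEDD9, NTRK2 and SOD3 are 9 genes of LS180 colorectal cancer cells that were higher after induction of SOX9 and that lie outside the usual marker sets of the intestinal epithelium. They were chosen by name for that rise and for its contrast with M303, a truncated form of SOX9, so their values in those inductions are given as a description and without a test. Intervals printed for those values describe the fit and are not read as tests. The 9 genes are 9 of the 60671 in the count table and of the 18219 whose counts were high enough to test. All of them also passed that filter when the induced SOX9 libraries were left out.

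The study used LS180, an established human colorectal cancer line, with doxycycline-inducible GFP, wild-type SOX9 or M303. Each line was sequenced without doxycycline and after 0.5 µg/ml doxycycline for 24 h, with 2 libraries in each of the 6 groups (12 libraries). The GFP line with doxycycline is the control for the drug and for an unrelated protein. How the constructs were delivered, and whether a line is 1 clone, are not given in the sources used here. Whether the 2 libraries of a group are separate cultures is not stated, and p-values then reflect only the spread between libraries, which may be technical.

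SOX9 is a transcription factor of the SOX family, which bind short DNA elements through an HMG box, and in the intestine it marks stem cells and Paneth cells at the crypt base. The 9 genes have no single function in common. TCN1 encodes a secreted cobalamin-binding protein, PLEKHS1 and PLEKHB1 encode proteins with a pleckstrin homology domain, and CYB5R2 encodes a cytochrome b5 reductase. PRSS23 is a serine protease, PIK3AP1 is an adaptor that couples receptors to phosphoinositide 3-kinase, and NEDD9 is a scaffold of the CAS family in adhesion signalling. NTRK2 encodes TrkB, the receptor for the neurotrophin BDNF, and SOD3 encodes the extracellular superoxide dismutase.

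Depth ran from 31012775 to 48529770 counts per library. All lines carried SOX9 before induction, at 369 ± 16.8 CPM (the count scaled to library size; mean ± SD, n = 2) in the SOX9 line, 383 ± 22.7 in the M303 line and 396 ± 4.63 in the GFP line. With doxycycline it reached 736 ± 34.7 CPM in the SOX9 line and 843 ± 34.4 in the M303 line, and stayed at 388 ± 24.0 in the GFP line. Its log2 fold change was 1.00 for SOX9, 1.14 for M303 and -0.03 for GFP. Counts per gene do not separate the construct from the cell's own SOX9. Of 11 markers of colorectal epithelium, all 11 were at 1 CPM or more by their median, and none was absent. Their sum was lowest in the induced SOX9 libraries, at 10100 CPM in both, against 10900 and 12200 in the uninduced SOX9 libraries and 11000 to 12300 in the GFP and M303 libraries. Of the 11, KRT8 weighs most in that sum, at 5350 to 6520 CPM over the libraries, and KRT20 least, at 2.78 to 12.6. For SOX9 induction 6 of the 11 were called lower and 0 higher (edgeR, adjusted over all tested genes), namely KRT20, CDX1, CDX2, VIL1, LGALS4 and MUC2. Their part in the values of the 9 genes was not tested.

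The promoters were read for letters of the SOX binding element because SOX9 is a DNA-binding protein of that family. RefSeq (GRCh38.p14) gave 20 transcription starts for the 9 genes. Counts per gene do not show which start the cells used. Core strings were searched on both strands from 250 bases before to 50 after each start. The string AACAAT was the first, the string ACAATG was the second, and the string ACAAAG was the third. The first and the second overlap where the letters read AACAATG. Shown are 240 bases, 250 to 11 before the start, 5′ to 3′ on the gene's strand, with matches in capitals (CTTTGT is ACAAAG read from the other strand, and the reverse complement of AACAAT is ATTGTT). TCN1, PLEKHS1 and NEDD9 are shown because they hold a match, and PIK3AP1 as a GC-rich promoter with none.
TCN1, chr11:59866498-59866737, minus strand: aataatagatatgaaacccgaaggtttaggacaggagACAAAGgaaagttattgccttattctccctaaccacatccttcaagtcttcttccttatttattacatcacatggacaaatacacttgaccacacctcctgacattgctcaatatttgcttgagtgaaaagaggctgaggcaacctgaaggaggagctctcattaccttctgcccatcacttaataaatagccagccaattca
PLEKHS1, start 2, chr10:113764569-113764808, plus strand: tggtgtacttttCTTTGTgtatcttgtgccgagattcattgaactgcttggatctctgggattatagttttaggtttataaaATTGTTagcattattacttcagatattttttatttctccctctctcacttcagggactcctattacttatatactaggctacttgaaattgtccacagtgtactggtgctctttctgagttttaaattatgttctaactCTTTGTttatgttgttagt
NEDD9, start 1, chr6:11382359-11382598, minus strand: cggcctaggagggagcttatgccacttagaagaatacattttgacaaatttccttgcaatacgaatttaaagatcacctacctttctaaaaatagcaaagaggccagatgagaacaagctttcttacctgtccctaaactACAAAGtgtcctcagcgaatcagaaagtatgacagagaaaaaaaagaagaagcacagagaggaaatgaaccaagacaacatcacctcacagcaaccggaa
PIK3AP1, chr10:96720525-96720764, minus strand: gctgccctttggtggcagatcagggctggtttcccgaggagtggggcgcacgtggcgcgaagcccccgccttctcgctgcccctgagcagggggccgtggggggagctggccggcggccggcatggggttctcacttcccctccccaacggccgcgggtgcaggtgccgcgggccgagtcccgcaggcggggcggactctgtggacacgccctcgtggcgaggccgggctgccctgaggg

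In TCN1 the match began 213 bases before the start, and in NEDD9 it began 110 bases before start 1. PLEKHS1 start 2 held 3 matches, which began 238, 168 and 29 bases before it. That start lies 13557 bases from the 5′ end of the gene in Ensembl. PLEKHS1 start 1, 420 bases from that end, held none. Of the other genes, PRSS23 start 2 held AACAATG, with its AACAAT beginning 175 bases before the start. PLEKHB1, CYB5R2 and NTRK2 each held 1 match, beginning 1 and 15 bases before a start and 21 bases after one. The NTRK2 match was at start 4, which lies 33054 bases from the gene's 5′ end in Ensembl. The other starts of NTRK2, PRSS23, PLEKHB1 and CYB5R2 held none. PIK3AP1 and SOD3 had none. By starts, 9 of 20 held a match, beside 29.1% of the 35116 promoters of the same length in RefSeq. For ACAAAG the count was 7 of 20, beside 16.1%. In the 250 bases before the start alone it was 7 of 20 for any string, beside 25.6%. Starts of 1 gene can share sequence, as NEDD9 starts 1 and 2 do. GC content before the start was 40.0% in TCN1, 34.0% at PLEKHS1 start 2, 40.4% at NEDD9 start 1 and 75.2% in PIK3AP1, beside a median of 58.0% over all promoters.

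Both induced SOX9 libraries lay above all 10 other libraries for 9 of the 9 genes. Genes were chosen for that contrast, and 7.7% of all tested genes had the same separation, so nothing is read from the count. In bulk RNA, more cells with a transcript and more transcript per cell cannot be told apart. The lowest induced SOX9 library exceeded the highest other library by 8.97-fold for TCN1, 6.0-fold for PLEKHS1, 4.01-fold for PLEKHB1, 3.95-fold for CYB5R2 and 3.89-fold for NTRK2. The gap was 2.8-fold for NEDD9, 2.2-fold for PRSS23, 1.69-fold for PIK3AP1 and 1.62-fold for SOD3. By the fitted change, 8 of 9 were at least 2-fold higher and SOD3 was 1.97-fold higher.

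**Figure D1:**
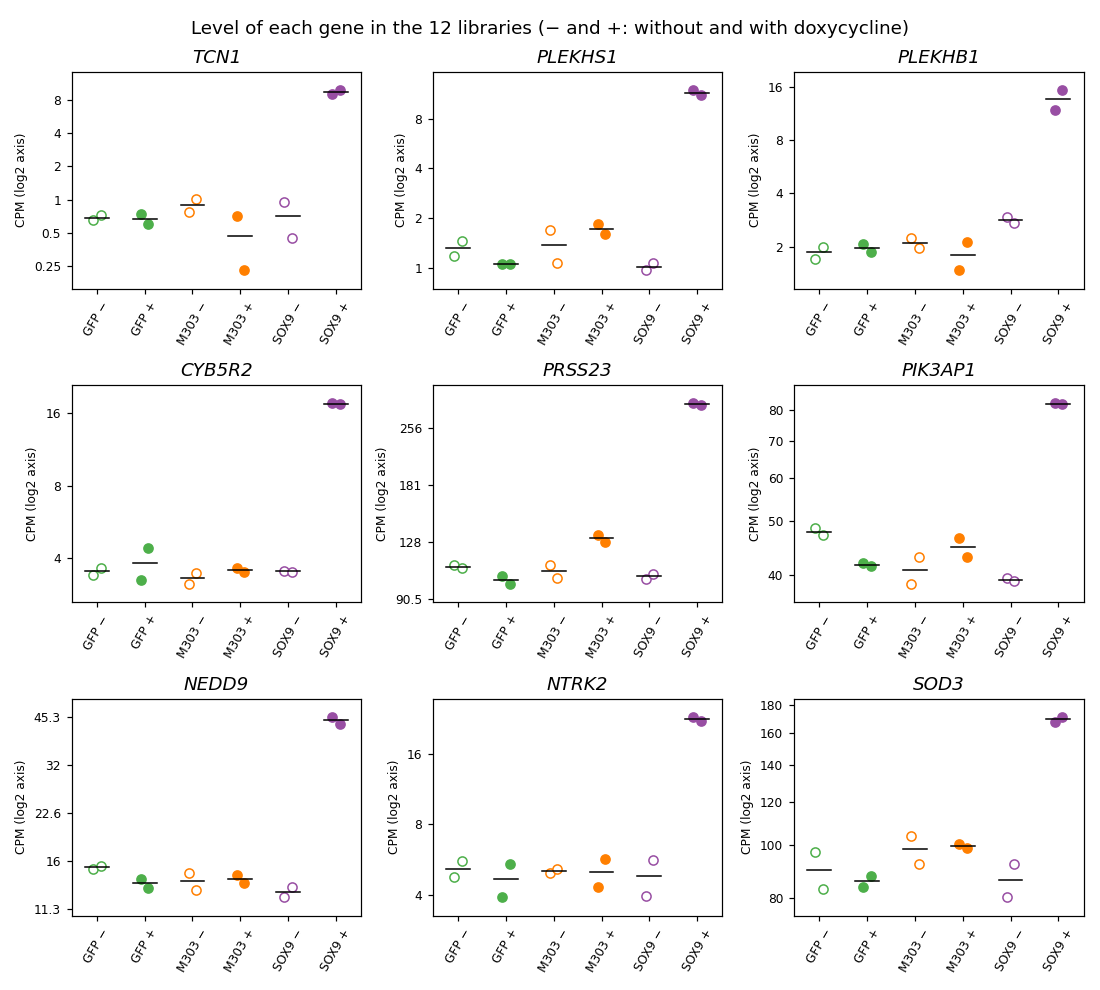
CPM of each gene (log2 axis) in the 12 libraries, by line and without (−, open) or with (+, filled) doxycycline; points are libraries and the line is the group mean. In all 9 panels both induced SOX9 libraries sit above the other 10, from 8.97-fold above the highest of them for TCN1 to 1.62-fold for SOD3.

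Among the secreted and extracellular proteins, TCN1 (ENSG00000134827, GRCh38 chromosome 11, 59852800 to 59866489, minus strand) was near 1 CPM or below outside the induced SOX9 cells. It stood at 9.09 and 9.80 CPM there, against 0.964 and 0.451 in the same line without doxycycline. The GFP libraries held 0.658 and 0.721 CPM without and 0.740 and 0.607 with doxycycline, and the M303 libraries 0.782 and 1.01 without and 0.709 and 0.230 with it. The 5 other groups overlapped along their order. The log2 fold change was 3.73 (SE 0.41) for SOX9 and -0.90 (95% interval -1.87 to 0.07) for M303. The M303 value rests on 1 library with 8 counts, or 4 read pairs if both mates of each were counted, and without that library it was -0.34. The 2 induced M303 libraries differed 3.08-fold, and the 2 uninduced SOX9 libraries differed 2.14-fold. Without uninduced SOX9 replicate 1 the SOX9 value was 4.38, and without replicate 2 it was 3.29.

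SOD3 (ENSG00000109610, chromosome 4, 24789912 to 24800842, plus strand) was expressed in every group and had the smallest fold change of the 9. Its induced SOX9 libraries held 168 and 172 CPM, against 80.1 and 92.2 in the uninduced SOX9 line. The GFP libraries held 97.0 and 83.1 CPM without doxycycline and 83.7 and 87.7 with it, and the M303 libraries 104 and 92.3 without and 100 and 98.5 with it. Outside the induced SOX9 group, neighbouring groups overlapped throughout. The log2 fold change was 0.98 (SE 0.09) for SOX9 and 0.02 for M303.

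PRSS23 (ENSG00000150687, chromosome 11, 86791059 to 86952910, plus strand), the protease, was the highest of the 9 by CPM. It held 298 and 295 CPM in the induced SOX9 libraries, against 103 and 106 without doxycycline. The GFP libraries held 112 and 109 CPM without and 105 and 99.4 with doxycycline, and the M303 libraries 112 and 103 without and 134 and 129 with it. Both induced M303 libraries lay above both uninduced ones. Its log2 fold change was 0.29 (0.14 to 0.44) for M303 and 1.51 (SE 0.07) for SOX9. The choice of the genes used M303, so that interval is not read as a test. PRSS23 shares 1399 exon bases with FZD4 on the opposite strand, and the counting used no strand and no overlap option. Reads that touch exons of both genes are then by default counted for neither. FZD4 reached at most 11.7 CPM, a value that leaves such reads out.

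The pleckstrin homology genes stood between 0.964 and 2.94 CPM in every library outside the induced SOX9 group. PLEKHS1 (ENSG00000148735, chromosome 10, 113751262 to 113783429, plus strand) held 11.9 and 11.1 CPM in the induced SOX9 libraries and 0.964 and 1.07 without doxycycline. Its GFP libraries held 1.18 and 1.44 CPM without and 1.06 and 1.05 with doxycycline, and its M303 libraries 1.69 and 1.07 without and 1.84 and 1.61 with it. The M303 groups overlapped. PLEKHS1 had a log2 fold change of 3.50 (SE 0.29) for SOX9 and 0.34 (-0.28 to 0.96) for M303.

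PLEKHB1 (ENSG00000021300, chromosome 11, 73646178 to 73662819, plus strand) held 11.8 and 15.4 CPM in the induced SOX9 libraries. That pair, 1.31-fold apart, was the least even of the 9 genes in that group. Its uninduced SOX9 libraries, at 2.94 and 2.7 CPM, were above the other 8 libraries. Those held 1.71 and 2.00 CPM (GFP without doxycycline), 2.06 and 1.88 (GFP with it), 2.23 and 1.97 (M303 without it) and 1.47 and 2.13 (M303 with it). The log2 fold change was 2.27 (SE 0.24) for SOX9 and -0.23 for M303.

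CYB5R2 (ENSG00000166394, chromosome 11, 7665100 to 7677222, minus strand), the reductase, had nearly equal replicates in most groups. It held 17.6 and 17.4 CPM in the induced SOX9 libraries and 3.53 and 3.52 without doxycycline. The GFP libraries held 3.42 and 3.64 CPM without and 3.25 and 4.41 with doxycycline, and the M303 libraries 3.13 and 3.47 without and 3.64 and 3.51 with it. The 5 other group means differed by 1.16-fold at most. The log2 fold change was 2.31 (SE 0.20) for SOX9 and 0.12 for M303.

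The signalling proteins covered the range from 2-fold to over 4-fold. NTRK2 (ENSG00000148053, chromosome 9, 84668551 to 85027070, plus strand) held 23.1 and 22.2 CPM in the induced SOX9 libraries and 3.96 and 5.60 without doxycycline. Its GFP libraries held 4.74 and 5.55 CPM without and 3.89 and 5.40 with doxycycline, and its M303 libraries 4.93 and 5.17 without and 4.30 and 5.69 with it. All 5 other groups overlapped with their neighbours in the order. The log2 fold change was 2.24 (SE 0.20) for SOX9 and -0.02 for M303.

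NEDD9 (ENSG00000111859, chromosome 6, 11183298 to 11382348, minus strand) held 45.3 and 43.1 CPM in the induced SOX9 libraries and 12.3 and 13.2 without doxycycline. Its GFP libraries held 15.2 and 15.4 CPM without and 14.1 and 13.2 with doxycycline, and its M303 libraries 14.7 and 13 without and 14.5 and 13.7 with it. The uninduced GFP libraries stood above the other 8 libraries outside the induced SOX9 group. NEDD9 had a log2 fold change of 1.79 (SE 0.12) for SOX9 and 0.03 for M303.

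PIK3AP1 (ENSG00000155629, chromosome 10, 96593315 to 96720514, minus strand) held 82.1 and 81.9 CPM in the induced SOX9 libraries and 39.4 and 38.9 without doxycycline. Its GFP libraries held 48.6 and 47.2 CPM without and 42.0 and 41.4 with doxycycline, and its M303 libraries 38.5 and 43.0 without and 46.7 and 43.0 with it. Both uninduced GFP libraries stood above every library outside the induced SOX9 group. PIK3AP1 had a log2 fold change of 1.07 (SE 0.09) for SOX9 and 0.14 for M303.

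Per exon length, the order of the genes was different from that by CPM. The length is that of all annotated exons of a gene, from 1500 bases for TCN1 to 20363 for NTRK2. The order therefore also depends on the annotation, and the transcripts used by the cells may be shorter. For PRSS23 the length includes the 1399 bases shared with FZD4. In RPKM, a count scaled by depth and by the gene's exon length, induced SOX9 cells held SOD3 at 84.1, PRSS23 at 25.9, PIK3AP1 at 14.4 and TCN1 at 6.30. NEDD9 followed at 4.27 RPKM, PLEKHB1 at 2.76, PLEKHS1 at 2.06, CYB5R2 at 2.04 and NTRK2 at 1.11. Without doxycycline the SOX9 line held SOD3 at 42.7 and PLEKHS1 at 0.182 RPKM, the highest and lowest of the 9. The 3 genes with the highest uninduced RPKM, SOD3, PRSS23 and PIK3AP1, were also the 3 with the smallest fold changes.

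The difference between the inductions (the SOX9 log2 fold change minus that of M303) was positive for all 9 genes, which the choice of genes fixed. It was 4.63 for TCN1, 3.16 for PLEKHS1, 2.5 for PLEKHB1, 2.27 for NTRK2 and 2.20 for CYB5R2. It was 1.76 for NEDD9, 1.22 for PRSS23, 0.96 for SOD3 and 0.93 for PIK3AP1. Over all tested genes, 2.97% were called for SOX9 induction, 1.81% higher and 1.16% lower (adjusted p below 0.05, edgeR quasi-likelihood test with Benjamini-Hochberg adjustment over 18219 genes). For M303 induction 0.00549% were called, which is 1 gene, SOX9 itself (adjusted p = 2.84e-08). For the difference between the inductions 0.489% were called, 0.357% with the larger value for SOX9 and 0.132% with the smaller. The genes were chosen on these contrasts, so no count of calls among them is read against these shares. The median log2 fold change for SOX9 was 2.24 over the 9, beside 0.01 over all tested genes.

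**Figure D2:**
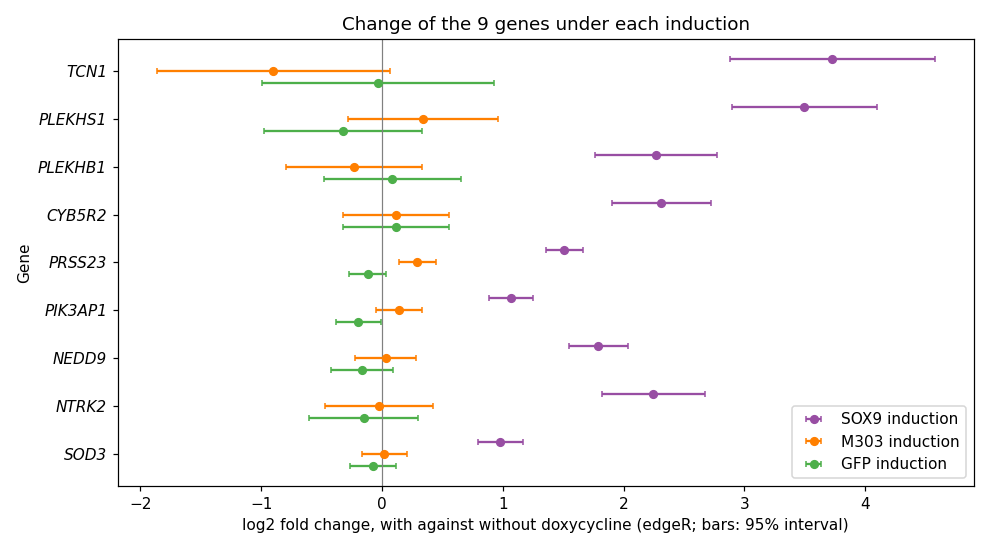
Log2 fold change of each gene with against without doxycycline in the SOX9, M303 and GFP lines, with 95% intervals from the fit over all 12 libraries. The SOX9 values run from 0.98 to 3.73, the M303 values from -0.90 to 0.34 and the GFP values from -0.32 to 0.12. The genes were chosen on the SOX9 and M303 inductions, so the intervals of these are not read as tests.

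The choice of the genes did not use the GFP line, so doxycycline itself could be tested on them. Of the 9 genes, 0 were called for GFP induction by edgeR, with 0% of all genes called. Of all genes 580 had an unadjusted p below 0.05, and DESeq2 called 2. The log2 fold changes of the 9 ran from -0.32 (PLEKHS1) to 0.12 (CYB5R2), with 7 below 0. Of all tested genes, 50.1% were above 0. PIK3AP1 came nearest to a call, at -0.20 (95% interval -0.39 to -0.01, edgeR adjusted p = 1), with both induced GFP libraries below both uninduced ones. The interval of TCN1, from -1.0 to 0.93, was the widest.

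The uninduced libraries of the SOX9 and M303 lines entered the contrasts that chose the genes, so their levels against the GFP line are given without a test. A gene chosen for its rise is favoured by a low uninduced SOX9 value. The uninduced GFP libraries are the reference for both lines and also for GFP induction, where 7 of 9 log2 fold changes were below 0. The part of the choice and of those libraries in the signs below was not tested. For the SOX9 line against the GFP line the log2 differences ran from -0.37 (PLEKHS1) to 0.60 (PLEKHB1), with 7 of 9 below 0, PIK3AP1 at -0.29 and NEDD9 at -0.26. For the M303 line they ran from -0.23 (PIK3AP1) to 0.38 (TCN1), with 5 of 9 below 0. Of all tested genes, 50.6% were above 0 for the SOX9 line and 49.9% for the M303 line. Both uninduced GFP libraries were above all 4 other uninduced libraries for PIK3AP1 and NEDD9. The share of all tested genes with such a separation was not counted. Nothing is therefore read from it, or from the separations given above for single genes outside the induced SOX9 group. Over all tested genes, edgeR called 0% for the SOX9 line (866 genes with an unadjusted p below 0.05, and 2 called by DESeq2) and 0.00549% for the M303 line.

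Relatives and partners of the 9 genes were read from lists chosen by function, without the 9 themselves. Of 142 such genes tested, 2 were called higher and 3 lower for SOX9 induction, or 3.52%, beside 2.97% of all genes. Their median log2 fold change was -0.01. None of the 142 was called for the difference between the inductions or for M303. All 5 calls below are from edgeR with adjustment over all tested genes.

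**Figure D3:**
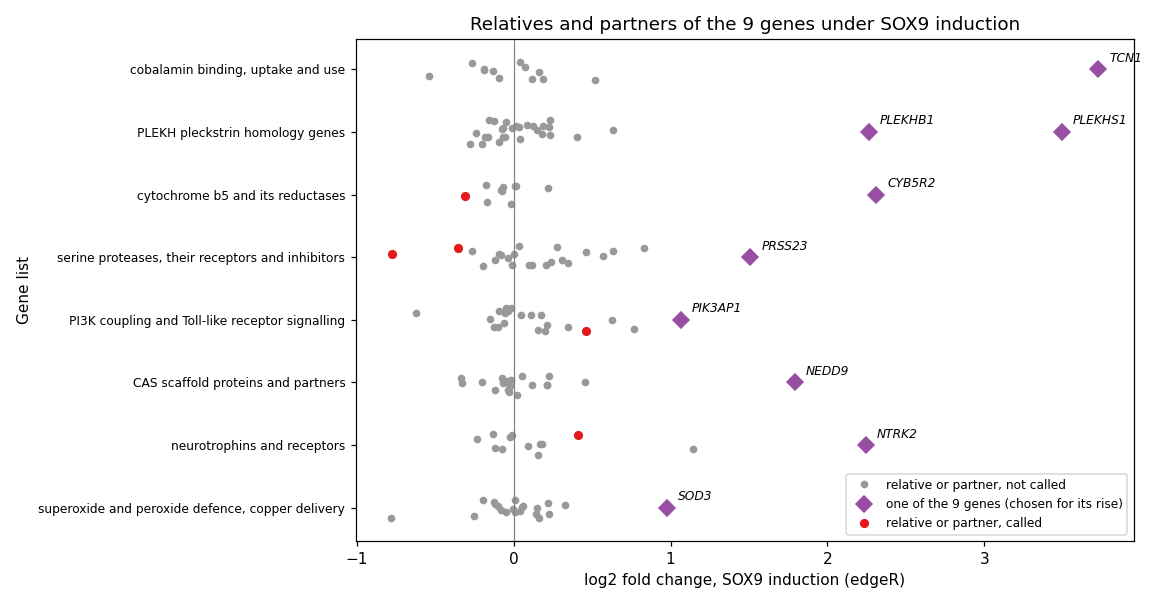
Log2 fold change for SOX9 induction of the tested relatives and partners in 8 lists (grey, red where called), with the 9 genes as diamonds for position only; PLEKHG7, with no counts in the uninduced SOX9 libraries, is left out. The list genes cluster near 0 (median -0.01), and the 5 called ones lie between -0.77 and 0.46.

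In the cobalamin list 0 of 12 genes were called. TCN2, the transcobalamin that delivers the vitamin to tissues, was at 6.04 ± 0.973 CPM without and 8.65 ± 0.122 with doxycycline in the SOX9 line (log2 fold change 0.52, adjusted p = 0.179). CD320, its receptor, was at 0.04. Gastric intrinsic factor, CBLIF, had at most 10 counts in a library and was not tested.

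Of the PLEKH list 0 of 28 were called. PLEKHB2, the closest relative of PLEKHB1 by name, was at -0.21 (adjusted p = 0.115) against 2.27 for PLEKHB1, and only DESeq2 called it lower (adjusted p = 0.0282). Of the cytochrome b5 list 1 of 10 was called. CYB5B, the mitochondrial outer membrane cytochrome b5, fell from 298 ± 12 to 240 ± 3.0 CPM (log2 fold change -0.31, adjusted p = 0.0105). The reductases CYB5R1, CYB5R3 and CYB5R4 were at -0.17, 0.01 and -0.08.

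Of the serine protease list 2 of 22 were called, both lower. SERPINA1, a protease inhibitor, fell from 22.4 ± 0.102 to 13.1 ± 0.274 CPM (log2 fold change -0.77, adjusted p = 0.00119). F2RL1, the protease-activated receptor PAR-2, fell from 126 ± 0.518 to 98.8 ± 2.37 CPM (log2 fold change -0.35, adjusted p = 0.0123). The protease PRSS8 was at -0.04. PRSS35, with at most 42 counts in a library, was at 0.83 (SE 0.64, edgeR adjusted p = 0.648).

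Of the phosphoinositide 3-kinase list 1 of 20 was called. PIK3R1, the regulatory subunit p85α, rose from 109 ± 2.93 to 150 ± 10.9 CPM (log2 fold change 0.46, adjusted p = 0.00364), beside 1.07 for PIK3AP1. The other B cell adaptors, BLNK and BANK1, stood at 1.10 and 0.521 CPM without doxycycline and at 0.15 and 0.35 in log2 fold change. The 8 markers of blood cells summed to between 1.93 and 4.41 CPM per library. CD14, at 1.6 to 3.35 CPM, was the 1 marker at 1 CPM or more by its median, and MS4A1 and CD3E were at 0 in every library.

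Of the CAS list 0 of 19 were called. BCAR1, the family's founding scaffold, and PTK2, the focal adhesion kinase, were both at -0.02, beside 1.79 for NEDD9. EFS and CASS4, the other members of the family, had at most 2 and 6 counts in a library and were not tested.

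Of the neurotrophin list 1 of 12 was called. SORT1, a sorting receptor that also binds neurotrophin precursors, rose from 167 ± 9.36 to 221 ± 3.81 CPM (log2 fold change 0.41, adjusted p = 0.00527). The NTRK2 ligands had few counts, with at most 14 in a library for BDNF and 9 for NTF4. The receptors NTRK3 and NGFR had at most 2 and 4 counts and were not tested. The 8 markers of neurons and glia summed to between 2.23 and 4.18 CPM per library. SYP, at 1.3 to 2.88 CPM, was the 1 marker at 1 CPM or more by its median, and OLIG2 and S100B were at 0 throughout.

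Of the superoxide list 0 of 20 were called. SOD1, the cytosolic enzyme, was at 344 ± 52.7 CPM without and 315 ± 14.4 with doxycycline (log2 fold change -0.13, adjusted p = 0.778), beside 0.98 for SOD3. The copper carriers CCS and ATOX1 were at -0.20 and 0.01.

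A fit without 1 SOX9 library left 1 library in its group, with a larger SE for the calls that were lost. A call lost in such a fit does not single out that library. With any 1 library left out, log2 fold changes ran from -0.355 to -0.273 for CYB5B and from -0.385 to -0.335 for F2RL1. They ran from 0.35 to 0.465 for SORT1 and from 0.374 to 0.524 for PIK3R1. Adjusted p for CYB5B became 0.0803, 0.104 and 0.169 without uninduced replicate 1, induced replicate 1 and induced replicate 2 of the SOX9 line. For F2RL1 it was 0.0647 without uninduced replicate 2, 0.175 without induced replicate 1 and 0.0893 without induced replicate 2. SORT1 went to 0.05, 0.0872 and 0.0529 without uninduced replicate 1, induced replicate 1 and induced replicate 2. PIK3R1 went to 0.129 without induced replicate 2. SERPINA1 stayed below 0.05 in every such fit.

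By position, 4 of the 9 genes lie on chromosome 11, which holds 5.35% of the tested genes, and 2 lie on chromosome 10. Within 250 kb of the 9 genes lay 29 other tested genes. Of these 2 were called higher and 0 lower for SOX9 induction, or 6.9% beside 2.97% of all genes, and their median log2 fold change was 0.03. NTRK2 had no tested gene within that distance.

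PPFIBP2, which encodes a liprin-family scaffold, lies 8.0 kb beyond the 3′ end of CYB5R2. It held 39.4 ± 2.71 CPM in the uninduced and 67.3 ± 0.43 in the induced SOX9 line, a rise of 0.77 (SE 0.11, edgeR adjusted p = 1.08e-04). It stood at -0.10 for M303, and the difference between the inductions was 0.87 (SE 0.15, adjusted p = 0.00411). CYB5R2 itself differed by 2.20. ME3, a mitochondrial malic enzyme, lies 118.4 kb before PRSS23 and rose from 28.7 ± 0.270 to 42.0 ± 2.02 CPM (log2 fold change 0.55, adjusted p = 0.00317). Without induced SOX9 replicate 2 that adjusted p was 0.08.

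**Figure D4:**
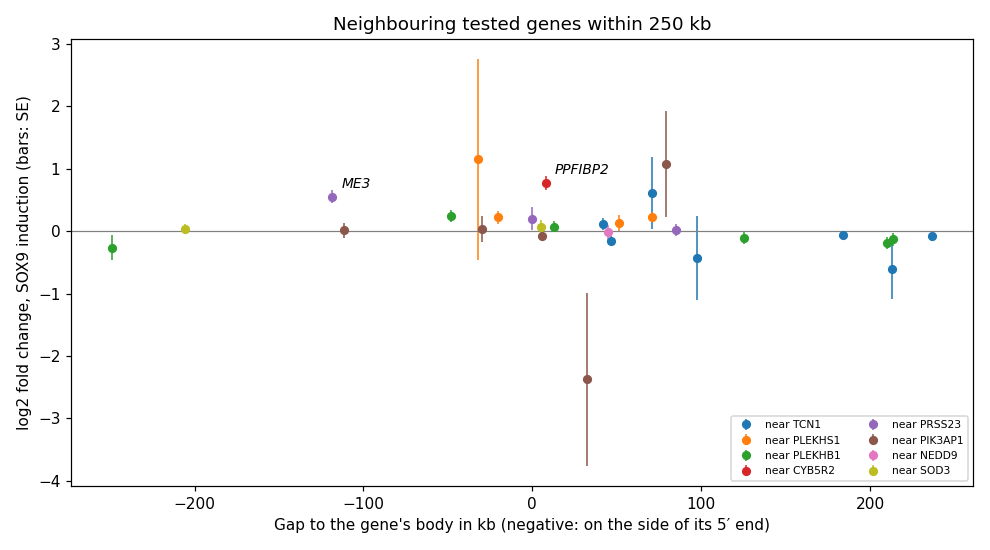
Log2 fold change for SOX9 induction (bars are SE) of the 29 tested genes within 250 kb of the 9 genes, against their gap in kb, negative on the 5′ side. PPFIBP2 at 0.77 and ME3 at 0.55 are the 2 called neighbours.

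The nearest tested genes of 6 others were not called. MRPL16 near TCN1 was at 0.12, RAB6A near PLEKHB1 at 0.07 and FZD4, which overlaps PRSS23, at 0.20. TM9SF3 near PIK3AP1 was at -0.08, SMIM13 near NEDD9 at -0.02 and CCDC149 near SOD3 at 0.06.

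Over the 12 libraries the 36 pairs among the 9 genes had a Pearson r of log2 CPM from 0.864 to 0.992, with a median of 0.949. These points share the 2 induced SOX9 libraries, which stand apart from the rest. Over the 10 remaining libraries r ran from -0.772 (PLEKHB1 with PIK3AP1) to 0.858 (PLEKHS1 with PRSS23), the median was -0.002, and 18 of 36 pairs were positive. As many pairs were thus negative as positive there.

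Among 181 candidate genes with a group mean span of at least 1 on the log2 scale, the 8 most like the mean profile of the 9 by Pearson r over 12 libraries were led by RELL1 (r = 0.989). LYZ, the lysozyme gene of Paneth cells, was next (0.986), and it went from 51.8 to 584 CPM in the SOX9 line. SLC6A14, an amino acid transporter, reached 0.984 and KRT6B, a keratin, 0.977. CDC42EP3 and SMOC1 reached 0.972 each, HMGCS1, a cholesterol synthesis enzyme, 0.965 and APCDD1, an inhibitor of Wnt signalling, 0.963. These values share the 2 induced SOX9 libraries, which stand apart from the rest. By Spearman's rho 1 of these 8, KRT6B, was again among the first 8. For single genes the most alike by Pearson r were LYZ for CYB5R2 (0.988) and PLEKHB1 (0.977), APCDD1 for PRSS23 (0.985), KRT6B for NEDD9 (0.980) and NTRK2 (0.973), and HMGCS1 for TCN1 (0.969). SLC6A14 was most like PLEKHS1 (0.969), CRYZL2P most like PIK3AP1 (0.972) and A4GALT most like SOD3 (0.965). By Spearman's rho the leading gene was another one for 8 of the 9 genes, such as SERPINF2 for CYB5R2 (0.888, where LYZ had 0.573) and HAPLN3 for PLEKHB1 (0.937). PIK3AP1 had CRYZL2P by both.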

How the data were processed

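The authors deposited 1 table of raw read counts per gene for the 12 poly(A) RNA-seq libraries (150-base paired-end, per the labels' protocols). The aligner was STAR 2.7.0a and the build hg38, per the submitters' processing notes. Per the file headers, they were counted with featureCounts 2.0.1 on Ensembl release 101, with no paired-end, strand, overlap or multi-mapping option in the command. Without that paired-end option each mate is counted as a read, so counts can overstate precision. Of tested counts from 1 to 500, 64.5% were even. TCN1 and PLEKHS1 had even counts in 12 of 12 libraries, PRSS23 in 5. Symbols were found for 42020 of 60671 genes (69.3%).

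From the counts, TMM-scaled CPM and RPKM were computed, and edgeR 4.0.16 (R 4.3.3; robust quasi-likelihood F-test, 1 mean per group over all 12 libraries, 6 residual degrees of freedom) was fitted to the 18219 genes that passed filterByExpr. Adjustment was Benjamini-Hochberg over all of them, with a threshold of 0.05. The fit was also run on counts simulated with the same spread for every gene. That run does not bear on mates counted as separate reads. The TMM factors were 0.981 to 1.02 and the biological coefficient of variation was 10.6%.

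The members and all lists were chosen with earlier results of these data known. Besides the 9 genes and SOX9, the text names fixed relatives, up to 3 called genes per list, called and nearest neighbours, and the genes most alike in profile. Alternatives were DESeq2 1.42.0, its size factors, no low-count filter, only the libraries compared, a replicate block and leaving out each library. Markers of endothelial cells summed to 0.0551 to 0.46 CPM and of fibroblasts to 2.97 to 5.06. SOD2 and protein sequences were not analysed here. One nearest neighbour and 1 relative named by that rule are not reported here.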

Additional observations from a re-analysis of the deposited data

Results flagged for a closer look

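PPFIBP2, the neighbour of CYB5R2, was marked because its response to the inductions differed between the SOX9 and M303 lines by a test of the difference itself. The SOX9 log2 fold change exceeded that of M303 by 0.87 (SE 0.15, edgeR adjusted p = 0.00411 over all tested genes), from 0.77 for SOX9 and -0.10 for M303. The SOX9 log2 fold change alone ran from 0.70 to 0.84 with 1 library left out and from 0.763 to 0.773 in the other alternative fits. Alternative fits of the difference are not given for PPFIBP2.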

How the results depend on the processing

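The SOX9 and SOX9 minus M303 values of the 9 genes were positive in 306 of 306 alternative values, at 0.879 to 1.227 times their main log2 value. The genes were chosen for these signs and the fits share libraries, so nothing is read from that count. For GFP induction 0 of 153 values were called. Of the 36 values of the 9 genes for M303, GFP and the uninduced lines, 16 had the other sign in at least 1 alternative. Only the GFP values among them were tested. For SOX9 induction 541 genes were called, 330 higher and 211 lower, and 231 to 675 when 1 library was left out. Without uninduced SOX9 replicate 1 the split turned to 252 higher and 275 lower. For M303 the count of 1 became 3 with DESeq2, 9 without the low-count filter, 3 with only its own libraries and 1 to 2 with 1 library left out. For the difference, 89 became 139 with DESeq2, 147 without the filter and 57 to 107 with 1 library left out. For GFP, 0 became 2 with DESeq2, 4 without the filter and 0 to 9 with 1 library left out, the 9 being without uninduced GFP replicate 1. For the uninduced SOX9 against GFP line, 0 became 2 with DESeq2, 17 without the filter, 1 with only its own libraries and 0 to 39 with 1 library left out; for M303 against GFP, 1 became 22 without the filter and 0 to 56 with 1 library left out. The 39 and 56 arose without uninduced GFP replicate 1. Calls in the lists ranged from 1 to 5 and among neighbours from 1 to 2 with 1 library left out, the neighbours within 100 kb held 1, and the 58 within 500 kb held 3, 2 higher and 1 lower. The cause of these shifts was not tested.

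Replicate numbers did not pair the libraries: correlations of same-numbered deviations ran from -0.352 to 0.282 over pairs of groups. With the replicate block, the counts were 452 for SOX9, 1 for M303, 78 for their difference, 0 for GFP, 0 and 1 for the uninduced lines, 5 in the lists and 2 among neighbours. With 2 libraries per group, the median SE of a log2 fold change above 1 CPM was 0.12. Some changes well above that were not called, such as TCN2 at 0.52 (adjusted p = 0.179). TCN1, with as few as 8 counts, had the widest intervals.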
